A study of Mus musculus with 32 samples.

Results

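Liver RNA from mice on a methionine- and choline-deficient (MCD) diet was compared between animals given Fc-GLP-1 and animals given none, in both cases 2 weeks after removal of 70% of the liver (partial hepatectomy, PH). The arrays were chosen by their titles and comprised 4 of the group M+Fc-GLP-1 after PH and 4 of the group MCD after PH, 8 of the 32 arrays of the series. Each array held RNA of 1 liver. The study asked how a long-acting agonist of the GLP-1 receptor acts on a fatty liver and on a liver that regrows after surgery.

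All animals were male mice of the C57/BL6 strain, 8 weeks old at the start. The MCD diet was fed for 3 weeks before PH. Treatment of the M+Fc-GLP-1 animals began after the first week, lasted 2 weeks before PH and went on with the same diet for 2 weeks after it. MCD animals had the same diet and surgery without the agonist, and the study states that the MCD and C groups were injected with saline. C and C+Fc-GLP-1 are the corresponding groups on standard (chow) diet, and 4 further groups were sampled before PH. Samples before PH were taken at the surgery, and the labels do not say whether any arrays before and after PH share a mouse. The study names the agent Fc-GLP-1, an agonist of the GLP-1 receptor fused to an antibody Fc part, and gives 10 nmol/kg every other day. The array labels use both this name and that of a dual agonist of GLP1R/GCGR at 4.4 mg/kg/day. Only animals that survived to 2 weeks after PH could be sampled.

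GLP-1 is a gut hormone that raises insulin release after a meal, and glucagon, which is made from the same precursor, acts on hepatocytes to raise glucose output. A diet without methionine and choline limits the making of phosphatidylcholine and the export of fat in lipoproteins, and the liver then stores fat and draws in neutrophils and macrophages. After PH the remaining hepatocytes divide until the mass of the liver is restored, while Kupffer cells, endothelium and stellate cells supply signals and matrix.

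Between 44.3% and 56.9% of probes were well above background on the MCD arrays, and between 46.6% and 55.2% on the M+Fc-GLP-1 arrays. The means differed by 2.16 percentage points (exact permutation test, two-sided, p = 0.543, n = 4 per group), less than the spread within either group. The MCD arrays lay on 1 slide and were read on 1 scanner, whereas the M+Fc-GLP-1 arrays shared another slide, and another scanner, with C+Fc-GLP-1. Slide, scanner and treatment therefore cannot be told apart in this comparison, and no fit with slide as a term exists. Probes for the E1A spike-in RNAs, which carry no mouse signal, differed in the same way. Probe E1A_r60_3 had a median intensity of 9.63 on the MCD arrays and 6241 on the M+Fc-GLP-1 arrays, and E1A_r60_1 had 113054 and 15008. The untreated chow arrays had the same spike-in pattern as the MCD arrays, with a median of 8.97 for E1A_r60_3, and the treated chow arrays that of M+Fc-GLP-1, with 7177. Before PH, where 1 scanner read all arrays, untreated arrays had medians of 5629 on chow and 6695 on MCD diet for E1A_r60_3, and treated arrays 4112 and 4957. The part of this difference in the gene results was not tested.

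**Figure D1:**
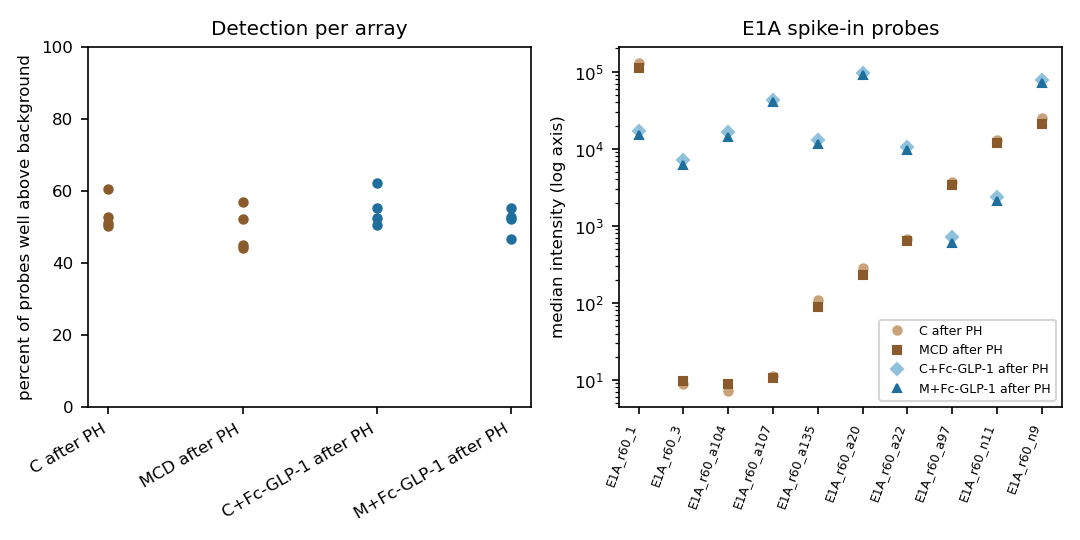
Percent of probes well above background on each array after PH (left, 1 point per array) and the median intensity of 10 E1A spike-in probes in each group after PH (right, log axis). Detection overlapped between the groups, from 44.3% to 56.9% on MCD and 46.6% to 55.2% on M+Fc-GLP-1 arrays, while the spike-in probes other than E1A_r60_n9 separated untreated from treated arrays after PH, which also differ in slide and scanner.

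The livers given Fc-GLP-1 had less RNA of several neutrophil, antibody and serum amyloid genes and more of the hepcidin genes than MCD livers. Of 21073 genes tested, 1369 differed at an adjusted p under 0.05 (6.5% of genes), 782 higher (3.71%) and 587 lower (2.79%) in M+Fc-GLP-1. The 4 and 4 arrays did not overlap for 3009 genes (14.3%), among them 1172 of the 1369. Predicted or unnamed genes made up 628 of the 1369 and are only counted here. The share of higher genes among those past the threshold, 57.1%, became 41% with arrays centred on their median and 38% in the authors' normalized values, and the median log2 change of all genes moved from 0.05 to -0.08 with median centring, so that small changes have no settled direction. The count fell to 712 without MCD replicate 1, 691 without MCD replicate 2, 818 without M+Fc-GLP-1 replicate 1 and 827 without M+Fc-GLP-1 replicate 2. Levels below are log2 signals relative to the 75th percentile of the array, given in the order of replicates 1 to 4, and changes are log2 differences ± standard error with n = 4 arrays per group.

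Most of the neutrophil markers tested fell. S100a8, which with S100a9 forms calprotectin, a calcium- and zinc-binding protein of neutrophils, read 3.65, 3.41, 4.10 and 4.94 on the MCD arrays and -0.44, -0.06, 2.70 and -0.46 with Fc-GLP-1. Ltf, the iron-binding granule protein lactoferrin, read -1.56, 1.61, 1.94 and 2.89 in MCD and -4.71, -6.02, -0.51 and -4.58 with Fc-GLP-1. For both genes replicate 3 was the highest of the treated arrays, and for Ltf it lay above MCD replicate 1, so that those groups overlapped. S100a8 fell by 3.59 ± 0.67 (adjusted p = 0.00179), under every alternative. The change of Ltf was -5.17 ± 1.01 (adjusted p = 0.00245), and its probe was well above background on 1 of the 4 treated arrays. Camp, the precursor of the antimicrobial peptide cathelicidin, changed by -4.12 ± 0.90 (adjusted p = 0.00643, but 0.0542 in a fit of only the groups compared), and Mpo, the myeloperoxidase of primary granules, by -4.35 ± 1.09 (adjusted p = 0.016). The call of Mpo was lost without M+Fc-GLP-1 replicate 2 (adjusted p = 0.0731) or MCD replicate 4 (adjusted p = 0.0538) and in a fit of only the groups compared (adjusted p = 0.0731). Prtn3, the granule protease proteinase 3, fell by 3.22 ± 0.71 (adjusted p = 0.00666) and was well above background on 3 of 4 treated arrays.

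Of 18 neutrophil markers 15 were tested, and 9 fell while 0 rose, against 2.79% of all genes lower. The list had a median log2 change of -2.52, beside 0.05 over all genes. Its summed signal, which Lcn2 dominates, was 978, 1173, 1064 and 1001 on the MCD arrays and 289, 680, 580 and 277 on the treated ones. Lcn2, an iron-chelator-binding protein that hepatocytes also make, had a log2 change of -1.32 ± 0.86 (adjusted p = 0.385). Ly6g, the usual surface marker of mouse neutrophils, had 0.46 ± 0.29 (adjusted p = 0.364). Between 4 and 11 of the markers passed under the alternatives, and 4 did so without M+Fc-GLP-1 replicate 2 or without MCD replicate 4, and 5 without M+Fc-GLP-1 replicate 1, M+Fc-GLP-1 replicate 4 or MCD replicate 2. In whole liver, fewer cells of a type and less RNA per cell cannot be told apart.

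The first 30 bases of the 60-base probes behind these values identify the transcripts measured, together with those of 2 further genes that fell. The probe of S100a8 (gene ID 20201) lay at chr3:90473778-90473837 on the plus strand of mm9 and that of Ltf (gene ID 17002) at chr9:110942873-110942932, plus strand. The probe of Cxcl13 (gene ID 55985) lay at chr5:96389861-96389920, plus strand, and that of Tmc5 (gene ID 74424) at chr7:125818347-125818406, plus strand.
S100a8: cttgttcagagaattggacatcaatagtga
Ltf: ttgcctgttccagtctaaaaccaaaaacct
Cxcl13: gatttattgtcttgcattaaaaccagtaac
Tmc5: ccaacctggactgctgatttttcttccaaa

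Jchain and some antibody gene segments fell with the treatment, while most B and plasma cell markers did not pass. Jchain, which joins the subunits of polymeric antibodies, read 2.14, 1.95, 2.10 and 1.68 in MCD and -2.02, -2.17, -0.66 and -0.86 with Fc-GLP-1. The lowest MCD array lay far above the highest treated array, and the gene was 10.6-fold lower (-3.40 ± 0.64, adjusted p = 0.00186). The immunoglobulin heavy chain segment Igh-VJ558 read 6.09, 6.29, 6.14 and 6.10 in MCD against 1.83, 2.38, 3.03 and 2.92, a change of -3.62 ± 0.56 (adjusted p = 0.000279). The light chain segment Igk-V21 was well above background on 4 MCD arrays and on 0 treated arrays, which made it at least 3.00-fold lower (adjusted p = 0.00149), with a log2 change of -0.86 in the authors' values. Both segments were picked by the size of their change and are not on the marker list. Mzb1, a chaperone of antibody assembly, fell by 1.62 ± 0.42 (adjusted p = 0.0206), and that call was lost without M+Fc-GLP-1 replicate 2 (adjusted p = 0.0585). Cxcl13, the chemokine that draws B cells into follicles, read 1.73, 2.68, 3.11 and 2.61 in MCD and -1.12, -1.51, -0.35 and -2.33 with Fc-GLP-1. Its groups did not overlap, and it was 14.5-fold lower (-3.86 ± 0.71, adjusted p = 0.00149). Of 16 B and plasma cell markers 12 were tested, 3 fell (Jchain, Mzb1 and Cd22) and 0 rose, against 2.79% of all genes lower, and the median was -0.72, or -0.65 with dim genes at their bound. Cd22, a B cell receptor, fell by 0.86 ± 0.22 (adjusted p = 0.0193), lost without M+Fc-GLP-1 replicate 4, MCD replicate 1 or MCD replicate 3 (adjusted p = 0.0526, 0.0801 and 0.0565) and in a fit of only the groups compared (adjusted p = 0.0719). Its change was -0.30 in the authors' values (adjusted p = 0.32) and -0.20 with normexp and quantile normalization (adjusted p = 0.537). The brightest of them, Sdc1, which hepatocytes also express, had 0.44 ± 0.22 (adjusted p = 0.237), and the summed signal of the list was 24.8, 26.9, 45.4 and 32.4 in MCD and 39.3, 39.4, 31.5 and 31.3 with treatment.

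Macrophage markers had negative medians. Adgre1, which encodes the surface protein F4/80 of mouse macrophages, read 2.87, 2.74, 1.91 and 1.32 in MCD and -0.51, 0.21, 0.56 and -0.20 with Fc-GLP-1. The groups did not overlap, and the change was -2.19 ± 0.59 (adjusted p = 0.0246). Timd4, a receptor for dying cells on long-lived Kupffer cells, fell by 1.78 ± 0.51 (adjusted p = 0.0337). Lyz2, the lysozyme of myeloid cells, fell by 2.13 ± 0.55 (adjusted p = 0.0197). Each of these 3 calls was lost under some alternatives. Without M+Fc-GLP-1 replicate 1, MCD replicate 1 or MCD replicate 2 the adjusted p of Adgre1 was 0.073, 0.0837 and 0.0793, that of Timd4 0.115, 0.0794 and 0.114, and that of Lyz2 0.0587, 0.0737 and 0.0592. Adgre1 and Timd4 also lost it without M+Fc-GLP-1 replicate 4 (adjusted p = 0.0507 and 0.0963), Timd4 without MCD replicate 3 (adjusted p = 0.0623), and Lyz2 without M+Fc-GLP-1 replicate 2 (adjusted p = 0.0636). Timd4 lost it as well with array weights, with no filter and in a fit of only the groups compared (adjusted p = 0.075, 0.0644 and 0.0665). Of 12 Kupffer cell markers 11 were tested, 2 fell and 0 rose, against 2.79% of all genes lower, with a median of -0.91, and their summed signal was 379, 433, 340 and 229 in MCD and 189, 198, 249 and 159 with treatment. Marco, the brightest of them, a scavenger receptor, had -0.89 ± 0.55 (adjusted p = 0.349). Of 20 markers of recruited monocytes and macrophages 19 were tested, 1 fell and 0 rose, with a median of -0.89. Their summed signal was 312, 250, 193 and 178 in MCD and 175, 172, 158 and 286 with treatment, so that treated replicate 4 stood apart. Cd63, the brightest of them, did not pass, and its change was positive under every alternative (0.50 to 0.83).

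Acute phase proteins, which hepatocytes secrete during inflammation, split by gene. Saa1, a serum amyloid A protein, read 9.14, 8.77, 7.60 and 6.92 in MCD and 4.05, 5.14, 6.80 and 4.43 with Fc-GLP-1. Saa2, its neighbour and close relative, read 8.08, 8.09, 6.72 and 6.42 in MCD and 2.48, 3.97, 6.22 and 2.94 with treatment. In both genes treated replicate 3 came closest to the MCD arrays, and replicate 3 was also the treated array with the highest S100a8. Saa1 was 8.03-fold lower (-3.0 ± 0.63, adjusted p = 0.00448) and Saa2 fell by 3.43 ± 0.70 (adjusted p = 0.00356), both under every alternative. Saa3, which macrophages also make, fell by 2.47 ± 0.46 (adjusted p = 0.00164). Orm3, of the orosomucoid family of plasma carriers, fell by 3.30 ± 0.81 (adjusted p = 0.0141), and that call was lost without M+Fc-GLP-1 replicate 1 (adjusted p = 0.06). The median of the 20 acute phase genes was -0.42, but -0.91 in the authors' values and -0.86 with normexp and quantile normalization. All 20 were tested, 4 fell and 2 rose, against 2.79% of all genes lower and 3.71% higher. Fgb, the beta chain of fibrinogen, was one of those that rose, by 0.69 ± 0.20 (adjusted p = 0.0352), but it had the opposite sign in the authors' values (-0.18) and with normexp and quantile normalization (-0.17), and it lost the call without any 1 of 6 arrays (adjusted p of up to 0.113), with median centring (adjusted p = 0.147), with no filter (adjusted p = 0.0822) and in a fit of only the groups compared (adjusted p = 0.142). The other was hepcidin.

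Hepcidin genes rose. Hamp, which encodes the liver hormone that limits iron export into blood, read 6.30, 6.78, 4.12 and 3.74 in MCD and 8.24, 7.56, 8.23 and 7.74 with Fc-GLP-1. MCD replicates 3 and 4 were the low ones, and all treated arrays lay above all MCD arrays. Its change was 2.71 ± 0.64 (adjusted p = 0.011), 6.53-fold higher, and it was past the threshold without any 1 of the 8 arrays but not in the authors' values (adjusted p = 0.0706) or with normexp and quantile normalization (adjusted p = 0.0678). Hamp2, its duplicate in the mouse, read 2.37, 2.05, 3.25 and 3.17 in MCD and 6.11, 4.95, 5.50 and 5.0 with Fc-GLP-1, a change of 2.68 ± 0.46 (adjusted p = 0.000904) that passed under every alternative. Bmp6, the secreted factor through which endothelium induces hepcidin, rose by 1.53 ± 0.34 (adjusted p = 0.00701), also under every alternative. Id1, a gene induced by the same pathway, read 1.42, 0.49, 0.76 and 0.76 in MCD and 3.86, 2.61, 2.66 and 2.60 with treatment. Its change of 2.08 ± 0.60 (adjusted p = 0.0357) was lost without any 1 of 7 arrays, with an adjusted p from 0.051 to 0.118, and was kept without M+Fc-GLP-1 replicate 4. It was also lost in the authors' values, with normexp and quantile normalization and with no filter (adjusted p = 0.083, 0.0871 and 0.0671). Of 18 iron genes 16 were tested, 4 rose and 0 fell, against 3.71% of all genes higher, and the median was 0.35. Trf, the brightest of them, the iron carrier of plasma, had 0.46 ± 0.32 (adjusted p = 0.416).

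The promoters of both hepcidin genes are shown because the genes rose together while a BMP response element is known from one of them. Both sequences are from RefSeq (build GRCm38.p6) and cover the 250 bases before the gene start on the minus strand, chr7:30944030-30944279 for Hamp (gene ID 84506) and chr7:30924182-30924431 for Hamp2 (gene ID 66438). Capitals mark the motif GGCGCC, which reads the same on both strands.
Hamp: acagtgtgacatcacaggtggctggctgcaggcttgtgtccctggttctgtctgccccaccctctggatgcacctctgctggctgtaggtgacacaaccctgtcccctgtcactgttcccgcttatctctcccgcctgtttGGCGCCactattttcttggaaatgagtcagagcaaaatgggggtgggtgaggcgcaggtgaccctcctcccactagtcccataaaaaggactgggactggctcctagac
Hamp2: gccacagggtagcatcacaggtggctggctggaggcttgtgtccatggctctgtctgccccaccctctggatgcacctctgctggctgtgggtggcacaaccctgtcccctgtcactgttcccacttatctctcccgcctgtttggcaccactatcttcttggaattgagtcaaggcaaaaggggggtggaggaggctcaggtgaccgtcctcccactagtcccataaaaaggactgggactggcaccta
The motif occurred 1 time in the Hamp sequence, at position -109 from the gene start, and 0 times in that of Hamp2. At the matching place Hamp2 differed by 1 base, G4A, counted from 1 at the 5′ end of the motif in Hamp. Over all 32851 promoters of the table, 9.59% held the motif in the same window. The array distinguished the pair by different probes, at chr7:31727490-31727549 for Hamp and chr7:31707520-31707579 for Hamp2 (mm9, minus strand), with these first 30 bases.
Hamp probe: ttctgctgtaaatgctgtaacaattcccag
Hamp2 probe: tctgctgtcagtgctgtaacaaaccctcct

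Of 30 methionine and one-carbon genes 29 were tested, 3 rose and 1 fell, against 3.71% of all genes higher and 2.79% lower, and the median was 0.44. Cdo1, which oxidizes cysteine, read 6.01, 5.50, 6.94 and 6.63 in MCD and 7.89, 7.57, 8.22 and 7.50 with Fc-GLP-1, a rise of 1.52 ± 0.35 (adjusted p = 0.00831) under every alternative. Gnmt, which uses up surplus S-adenosylmethionine, rose by 0.99 ± 0.26 (adjusted p = 0.0195), and Bhmt, which remakes methionine with betaine, by 1.02 ± 0.31 (adjusted p = 0.0441). Gnmt lost the call without M+Fc-GLP-1 replicate 1 or 2 or MCD replicate 1 (adjusted p = 0.0527, 0.0691 and 0.0682), in the authors' values (0.56, adjusted p = 0.118) and with normexp and quantile normalization (0.63, adjusted p = 0.0792). Bhmt lost it without any of the 4 treated arrays or MCD replicates 1 and 2, with an adjusted p of up to 0.212. It also lost it with array weights, median centring and no filter and in a fit of only the groups compared (adjusted p = 0.0604, 0.0978, 0.0877 and 0.139). The change of Bhmt was 0.43 in the authors' values (adjusted p = 0.413) and 0.46 with normexp and quantile normalization (adjusted p = 0.402). It was 0.67 without MCD replicate 1 and 1.56 with the probes of the gene averaged. Mthfd2, a mitochondrial folate enzyme of dividing cells, read -0.95, -0.73, -2.06 and -1.54 in MCD and -3.29, -4.73, -3.32 and -2.40 with treatment, well above background on 2 of those 4 arrays. It fell by 2.11 ± 0.50 (adjusted p = 0.0103), a call that was lost without M+Fc-GLP-1 replicate 2 (adjusted p = 0.056).

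Cd36, a fatty acid transporter, read 3.47, 3.6, 3.65 and 3.92 in MCD and 1.44, 1.25, 2.94 and 1.83 with Fc-GLP-1, a fall of 1.79 ± 0.40 (adjusted p = 0.00713) under every alternative. Idi1, an isomerase of sterol synthesis, fell by 1.64 ± 0.45 (adjusted p = 0.0281), a call that was lost without M+Fc-GLP-1 replicates 1 and 4 and MCD replicates 2, 3 and 4, with an adjusted p from 0.0537 to 0.0984, and with no filter or in a fit of only the groups compared (adjusted p = 0.0565 and 0.0509). Acot5, a peroxisomal thioesterase, rose by 1.61 ± 0.39 (adjusted p = 0.0118), and it lost the call without M+Fc-GLP-1 replicate 2 (adjusted p = 0.0627) or in a fit of only the groups compared (adjusted p = 0.0689). Of 26 cholesterol genes 25 were tested, 2 fell and 0 rose, against 2.79% of all genes lower, with a median of -0.42. Of 31 PPAR alpha and fatty acid oxidation genes 30 were tested, 2 rose and 1 fell, against 3.71% of all genes higher and 2.79% lower, with a median of 0.31 that changed sign under some alternatives. Cux2, a transcription factor of female liver, read -2.48, -2.41, -0.96 and -1.04 in MCD and 0.78, 0.38, -0.37 and 1.15 with Fc-GLP-1, and it rose by 2.21 ± 0.47 (adjusted p = 0.00489) under every alternative.

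**Figure D2:**
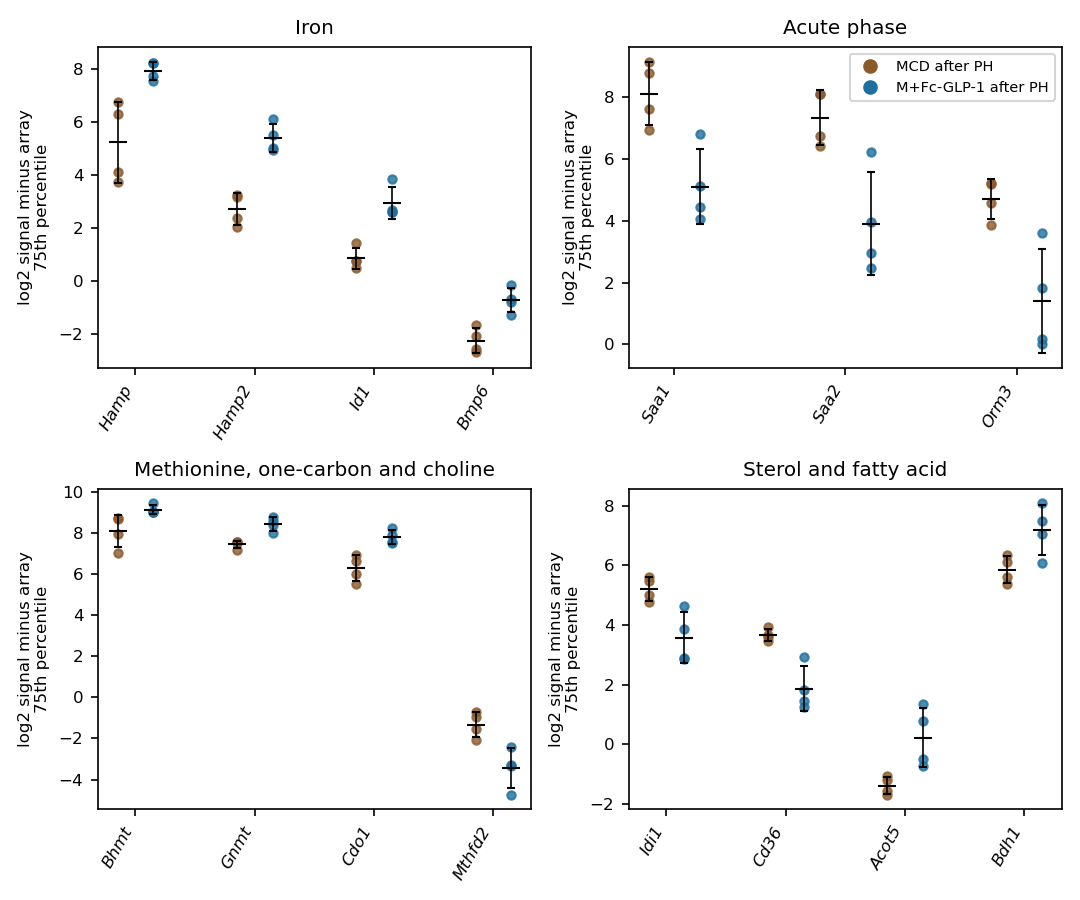
Log2 signal of iron, acute phase, one-carbon and lipid genes on each array of MCD and M+Fc-GLP-1 after PH (points), with group mean and SD (n = 4). All treated arrays lay above all MCD arrays for Hamp and Hamp2 and below them for Saa1 and Saa2.

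Rises and falls were ranked by size among genes with a name that passed the threshold and whose 4 and 4 arrays did not overlap. For 6 of the first 12 rises by this rule the probe was well above background on 0 MCD arrays, so that their place in the ranking is not measured and only a bound is given. Defb1, an antimicrobial defensin of epithelia, read -3.89, -4.32, -3.97 and -4.43 in MCD and -0.77, -1.34, -0.74 and -0.52 with Fc-GLP-1, at least 9.63-fold higher (adjusted p = 0.000186), but with a log2 change of 1.62 in the authors' values and 1.47 with normexp and quantile normalization. Il25, a cytokine of tuft cells, was at least 3.86-fold higher (adjusted p = 0.00118). The others of this kind were Olah at least 3.39-fold, Prl3a1 at least 3.23-fold, Khdc1c at least 2.63-fold and Kctd7 at least 1.97-fold higher, Kctd7 with 3 of 4 treated arrays well above background. All 6 bounds hold for the processing used here. In the authors' values the log2 changes were 0.80 for Il25, 0.86 for Olah, 0.66 for Prl3a1, 0.68 for Khdc1c and 0.55 for Kctd7. With normexp and quantile normalization the adjusted p was 0.0625 for Olah, 0.172 for Kctd7 and 0.0781 for Ccny, and in the authors' values 0.0644 for Kctd7. N6amt1, a methyltransferase of glutamine in translation release factors, was measured on all arrays. It read -2.78, -2.82, -2.75 and -2.75 in MCD and -0.33, 0.61, 0.42 and 0.37 with Fc-GLP-1, the lowest adjusted p of all genes (3.04 ± 0.26, adjusted p = 3.07e-08), but the change was 1.55 with its probes averaged. Before PH, on the scanner of the treated arrays, N6amt1 read 0.47, 0.59, 1.01 and 0.86 in MCD and 0.31, 0.56, 0.34 and 0.72 with Fc-GLP-1. After PH it read -3.33, -2.90, -2.69 and -2.37 in C, on the scanner of MCD, and -0.41, -0.51, -0.18 and 0.20 in C+Fc-GLP-1. The part of the scanner in these levels was not tested. The remaining rises were Mrgprg with 3.03, Nyap1 with 2.94 and Ccny with 2.91, each well above background on 1 of 4 MCD arrays, and with 1.30, 1.08 and 1.13 in the authors' values. Nyap1 read -2.78, -3.54, -2.98 and -2.42 in MCD before PH, and from -2.80 to -2.44 in M+Fc-GLP-1 after PH. The probes named for Gcm1 (2.80 ± 0.51, adjusted p = 0.00124) and Rhox8 (3.13 ± 0.56, adjusted p = 0.00113) each hold a stretch of 44 bases that repeats a unit of 3, and that of Gcm1 lies on chromosome 7 while the gene is on 9. Their signal cannot be assigned to these genes. Of 66 genes whose probe has such a stretch of at least 30 bases, a set chosen after seeing the data, 30 rose and 0 fell, against 3.71% of all genes higher. The cause was not tested. Defb1 (gene ID 13214) was measured at chr8:22905041-22905100 and N6amt1 (gene ID 67768) at chr16:87368762-87368821, both on the plus strand of mm9, by probes with these first 30 bases.
Defb1: agagctgacagtagtttgaagaatggacat
N6amt1: attgaatccattccactgaacatgtagcca

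Among the first 12 falls by the same rule, Amer3 and Igk-V21 were well above background on 0 treated arrays and have only a bound. Ltf, Mpo and Camp also passed, but their groups overlapped. Tmc5, a channel-like membrane protein of epithelia, read -0.18, -0.37, -1.09 and -0.88 in MCD and -4.78, -3.15, -4.38 and -6.48 with Fc-GLP-1, well above background on 1 treated array. It fell by 4.07 ± 0.73 (adjusted p = 0.00123), but by 2.01 in the authors' values and 1.75 with normexp and quantile normalization. Amer3, a protein that binds APC, was at least 3.18-fold lower (adjusted p = 5.61e-05), with 3 of 4 MCD arrays and 0 treated arrays well above background, and had a log2 change of -0.68 in the authors' values. Rnf138rt1 fell by 3.23 ± 0.89 (adjusted p = 0.0281), which was lost without M+Fc-GLP-1 replicates 1, 2 and 4 and MCD replicates 1 and 2, with an adjusted p from 0.0582 to 0.0793, and with no filter (adjusted p = 0.0539). Dpp6, a potassium channel subunit, read -1.57, 6.26, -1.14 and -0.87 in MCD and -2.68, -2.14, -2.50 and -2.73 with treatment. MCD replicate 2 stood far above the rest, and without it the change was -1.32 (adjusted p = 0.103). The call of Dpp6 was also lost without any 1 of the 4 treated arrays, with an adjusted p from 0.0666 to 0.0871, and with no filter, with normexp and quantile normalization and in a fit of only the groups compared (adjusted p = 0.0732, 0.0531 and 0.229).

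**Figure D3:**
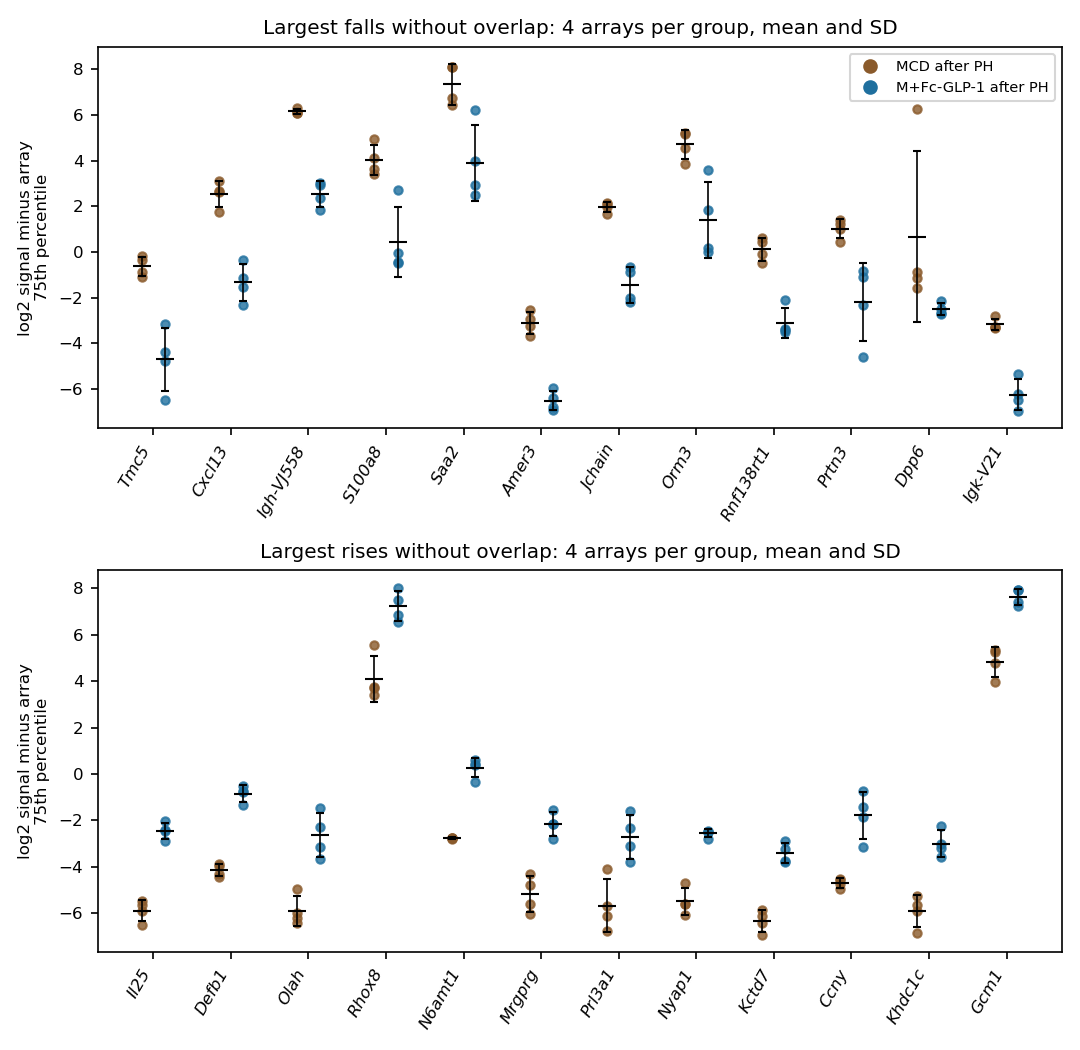
Log2 signal relative to the array's 75th percentile for the 12 largest falls and the 12 largest rises among genes with a name, past the threshold and without overlap between the groups (points, 4 arrays per group; bars, mean and SD). Values that were not well above background are not measured sizes. In Dpp6 1 MCD array at 6.26 stood apart, and the MCD arrays of N6amt1 spanned -2.82 to -2.75.

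The other cell type lists had from 0 to 4 calls each, beside 6.5% of all genes. Of 12 hepatocyte markers 11 were tested, each well above background on all 8 arrays with Alb the brightest, and 1 rose (Fgb, whose sign and call turned under alternatives as given above) and 0 fell, with a median of 0.42, which was 0.0143 in the authors' values and 0.0616 with normexp and quantile normalization. The summed signal of these markers was 4846, 4947, 5328 and 5012 in MCD and 8160, 7383, 7495 and 5093 with Fc-GLP-1. Epcam, a surface protein of bile duct cells, read -5.38, -4.14, -3.56 and -3.79 in MCD and -2.30, -1.82, -2.69 and 1.06 with treatment, a rise of 2.78 ± 0.62 (adjusted p = 0.00697, but 0.0639 in a fit of only the groups compared). It was well above background on 2 of 4 MCD arrays. Of 16 bile duct and progenitor markers 14 were tested, 1 rose and 0 fell, with a median of 0.92, or 0.83 with dim genes at their bound and 0.35 without M+Fc-GLP-1 replicate 4. Their summed signal was 13.9, 13.4, 17.2 and 16.3 in MCD and 22.2, 21.6, 19.9 and 99.5 with treatment, so that treated replicate 4 stood apart. Krt19, a keratin of bile ducts chosen after its values were seen, read -0.83, -0.54, -1.40 and 3.34 on the treated arrays. The untreated chow livers also held such an array, with sums of 113, 9.50, 6.58 and 11.5, and so did the treated chow livers, with 80.5, 18, 9.07 and 10.5. Ppbp, a chemokine of platelet granules, fell by 2.59 ± 0.58 (adjusted p = 0.00708), as the 1 call among 9 tested of 12 platelet markers.

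Of 22 T, NK and cytotoxic cell markers 17 were tested, and Ccl5, a chemokine of activated T cells, was the 1 that fell, by 1.26 ± 0.35 (adjusted p = 0.0302), lost without M+Fc-GLP-1 replicates 2 and 4 and MCD replicates 1, 3 and 4 (adjusted p from 0.0513 to 0.115), with no filter (adjusted p = 0.0619) and in a fit of only the groups compared (adjusted p = 0.0975). The median of that list was -0.57. Among 15 sinusoidal endothelium markers 14 were tested, 1 rose and 2 fell. Wnt2, a Wnt ligand of central endothelium, rose by 1.61 ± 0.40 (adjusted p = 0.0147), lost without M+Fc-GLP-1 replicate 1 (adjusted p = 0.055) or MCD replicate 2 (adjusted p = 0.0773) and in a fit of only the groups compared (adjusted p = 0.0503). Rspo3, which enhances Wnt signals, fell by 0.93 ± 0.29 (adjusted p = 0.0493), and Clec4g, a lectin of sinusoids, by 1.07 ± 0.33 (adjusted p = 0.0467), each lost without any 1 of 7 arrays, with an adjusted p of up to 0.205 and 0.163. Both also lost it with no filter (adjusted p = 0.0975 and 0.0915), with normexp and quantile normalization (adjusted p = 0.166 and 0.0868) and in a fit of only the groups compared (adjusted p = 0.117 and 0.0729). Rspo3 lost it in the authors' values (adjusted p = 0.115), and Clec4g with array weights (adjusted p = 0.0805) and median centring (adjusted p = 0.0522). Klf1, a regulator of red cell formation, rose by 1.23 ± 0.32 (adjusted p = 0.021), and the anion exchanger Slc4a1 fell by 1.26 ± 0.33 (adjusted p = 0.0212), the 2 calls among 7 tested of 11 erythroid markers. Klf1 lost the call without MCD replicate 1 (adjusted p = 0.114), M+Fc-GLP-1 replicate 2 (adjusted p = 0.0627) or 4 (adjusted p = 0.0515), and Slc4a1 without M+Fc-GLP-1 replicates 1 and 4 or MCD replicates 3 and 4, with an adjusted p of up to 0.078. In a fit of only the groups compared their adjusted p was 0.0996 and 0.0651. The gallbladder and gut epithelium list had 11 of 16 genes tested, with Il25 and Defb1 higher and Tmc5 and Tff3 lower, against 3.71% and 2.79% of all genes. Il25, Defb1 and Tmc5 are also among the ranked rises and falls above. The list was made with earlier results of these data known, so its counts are no independent evidence. Tff3, a mucosal trefoil peptide, fell by 1.61 ± 0.49 (adjusted p = 0.045), lost without any 1 of 7 arrays (adjusted p of up to 0.133), in the authors' values (adjusted p = 0.103), with normexp and quantile normalization (adjusted p = 0.147), with no filter (adjusted p = 0.0852) and in a fit of only the groups compared (adjusted p = 0.0508). No tested gene passed among stellate cells and myofibroblasts (17 of 19 tested), mesothelium (6 of 10), pancreatic acinar cells (6 of 11) or adipocytes (4 of 8), and the medians of these lists were 0.39, 0.17, -0.04 and 0.88, of which the first 3 changed sign under some alternatives. The platelet and erythroid medians were -0.49 and -0.44, that of sinusoidal endothelium 0.13 with a sign that changed, and that of gallbladder and gut epithelium 0.39. The part of these marker genes in the other results was not tested.

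**Figure D4:**
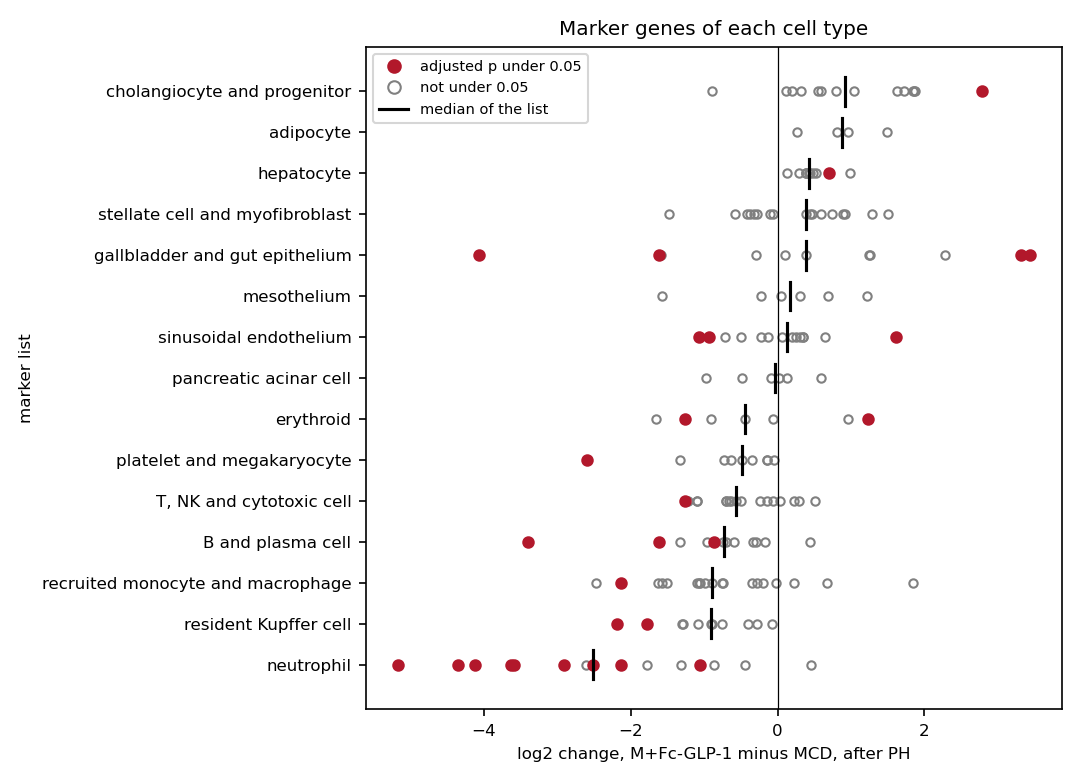
Log2 change of every tested marker gene in each cell type list, M+Fc-GLP-1 minus MCD after PH (points; filled, adjusted p under 0.05; black line, median). The neutrophil list had the lowest median, -2.52, and that of the bile duct and progenitor list was 0.92, or 0.83 with dim genes at their bound.

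Of 18 genes named in the study 17 were tested, 1 fell (Adgre1) and 0 rose, beside 6.5% of all genes past the threshold, with a median of 0.04 that changed sign under some alternatives. The study followed up Tnf, Il1b and Adgre1 from its own array results before PH, so their direction before PH is no independent evidence. The arrays compared here are others, and whether any of them share a mouse with those before PH is not given. Acta2, the smooth muscle actin of activated stellate cells, read -0.44, -0.62, 0.58 and -1.16 in MCD and 1.09, 1.79, -0.18 and 1.68 with Fc-GLP-1. The groups overlapped through treated replicate 3, and the change was 1.5 ± 0.54 (adjusted p = 0.0893), which passed without that array (1.93, adjusted p = 0.0407). Il1b, a macrophage cytokine, had -1.30 ± 0.47 (adjusted p = 0.0943), Col1a1 0.89 ± 0.62 (adjusted p = 0.414) and Fgf21, a liver hormone of fasting, -0.90 ± 0.54 (adjusted p = 0.33). With 1 array left out Col1a1 ranged from 0.40 to 1.43 and Fgf21 from -1.15 to -0.54. Glp1r, the receptor of the agent, was well above background on 3 of 4 arrays in each group, with a change of 0.04 ± 0.51 (adjusted p = 0.978) whose sign turned under some alternatives. Ifng was not well above background on any of the 8 arrays.

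Of 30 mitosis genes 24 were tested and 0 passed, beside 6.5% of all genes. Their median was -0.56, or -0.90 without M+Fc-GLP-1 replicate 4. Of 28 DNA replication genes 25 were tested, and Mcm2, of the replicative helicase, was the 1 that fell, by 1.29 ± 0.39 (adjusted p = 0.044), lost without M+Fc-GLP-1 replicates 1, 3 and 4 and MCD replicates 1, 2 and 3 (adjusted p from 0.0563 to 0.137). Mcm2 also lost the call with no filter (adjusted p = 0.0851) and in a fit of only the groups compared (adjusted p = 0.0508), and the median of that list was -0.16. Jun, a growth-responsive transcription factor, read 3.36, 3.98, 4.25 and 3.95 in MCD and 1.83, 1.27, 2.13 and 2.41 with Fc-GLP-1, a fall of 1.98 ± 0.45 (adjusted p = 0.00851) that passed under every alternative. It was the 1 call among 21 tested of 24 immediate early genes, whose median was -0.40, or -0.60 without M+Fc-GLP-1 replicate 4. Isg20, an exonuclease induced by interferon, fell by 1.36 ± 0.27 (adjusted p = 0.00274) under every alternative, the 1 call among 24 tested of 25 interferon-stimulated genes, whose median of 0.20 changed sign under some alternatives.

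Inflammatory receptors and ligands had negative medians under every alternative, and their calls stand beside 2.79% of all genes lower. Of 30 chemokine genes 26 were tested, 2 fell (Cxcl13 and Ccl5) and 0 rose, with a median of -0.60. Of 30 cytokine and Toll-like receptor genes 24 were tested with a median of -0.45, and Pycard, an inflammasome adaptor, was the 1 that fell, by 1.27 ± 0.37 (adjusted p = 0.0371). Pycard lost the call without M+Fc-GLP-1 replicates 1, 2 and 3 and MCD replicates 1 and 2, with an adjusted p of up to 0.152, and in the authors' values, with normexp and quantile normalization, with no filter and in a fit of only the groups compared (adjusted p = 0.0842, 0.116, 0.0723 and 0.0684). The 10 tested of 13 MHC class II genes had a median of -0.72 and 0 calls. Of 28 genes of stress in the endoplasmic reticulum 26 were tested with a median of -0.28, and Sdf2l1, a chaperone cofactor, fell by 1.42 ± 0.44 (adjusted p = 0.0477), a call lost without any of the 4 treated arrays or MCD replicates 1 and 2, with an adjusted p of up to 0.191. It was also lost with array weights, median centring and no filter and in a fit of only the groups compared (adjusted p = 0.105, 0.0615, 0.0904 and 0.0984).

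The 22 tested of 26 collagen and matrix genes had a median of 0.47, or 0.17 without M+Fc-GLP-1 replicate 4, and 0 calls. The median signal of the list was 1.73 on that array against 0.19, 0.07 and -0.30 on the other treated arrays, and the summed signal of matrix proteases and inhibitors 70.3 against 26.9, 24.6 and 22.3. Of 22 matrix protease and inhibitor genes 18 were tested, 1 rose and 1 fell, against 3.71% of all genes higher and 2.79% lower, with a median of 0.06 that changed sign under some alternatives. Timp3, an inhibitor of matrix proteases, rose by 0.87 ± 0.25 (adjusted p = 0.0363), lost without M+Fc-GLP-1 replicates 1, 2 and 4 or MCD replicates 1, 2 and 4 (adjusted p of up to 0.124). Timp3 also lost it with array weights, median centring and no filter and in a fit of only the groups compared (adjusted p = 0.0645, 0.111, 0.0783 and 0.114). Mmp8, the collagenase of neutrophils, fell by 2.52 ± 0.70 (adjusted p = 0.029), lost without the same 6 arrays (adjusted p of up to 0.0918) and with no filter (adjusted p = 0.0561).

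Secretory and metabolic lists of hepatocytes had 1 or 2 calls each, beside 3.71% of all genes higher and 2.79% lower. Apoa2, a protein of high-density lipoprotein, was the 1 that rose among 21 lipoprotein genes, all tested, by 0.77 ± 0.23 (adjusted p = 0.044). Its call was lost without any 1 of 7 arrays (adjusted p of up to 0.168), with the replicate block (adjusted p = 0.0503), with no filter (adjusted p = 0.0927), in a fit of only the groups compared (adjusted p = 0.126) and with median centring (adjusted p = 0.185). The change of Apoa2 was 0.01 in the authors' values (adjusted p = 0.983) and -0.0012 with normexp and quantile normalization (adjusted p = 0.998). The median of the list was 0.22 with a sign that changed. Cyp2b13, a female-biased cytochrome, rose by 1.32 ± 0.33 (adjusted p = 0.0169), the 1 call among 28 tested of 32 cytochrome P450 genes, whose median was 0.54. It was lost without M+Fc-GLP-1 replicates 1 and 3 or MCD replicate 2, with an adjusted p of 0.0717, 0.0517 and 0.0603, and in a fit of only the groups compared (adjusted p = 0.0726). Hlf, a clock-controlled transcription factor, rose by 1.05 ± 0.29 (adjusted p = 0.0277), the 1 call among 18 tested of 20 clock genes with a median of 0.24, and was lost without M+Fc-GLP-1 replicates 1, 2 and 3 or MCD replicates 1 and 2 (adjusted p of up to 0.0949). Hlf also lost it in the authors' values, with normexp and quantile normalization, with no filter and in a fit of only the groups compared (adjusted p = 0.164, 0.147, 0.0592 and 0.0783). Igfbp2, a binding protein of insulin-like growth factors, rose by 1.15 ± 0.34 (adjusted p = 0.04), lost without any 1 of 7 arrays (adjusted p of up to 0.102). Its change was 0.53 in the authors' values (adjusted p = 0.323) and 0.56 with normexp and quantile normalization (adjusted p = 0.326), and the call was also lost with median centring, no filter and averaged probes (adjusted p = 0.0655, 0.0792 and 0.0531). With Cux2 it made 2 calls among 19 tested of 22 growth hormone and IGF genes. Gstm2, a glutathione transferase, fell by 1.00 ± 0.26 (adjusted p = 0.0195), the 1 call among 28 tested of 31 NRF2 and glutathione genes, lost without M+Fc-GLP-1 replicates 2 and 4 or MCD replicates 1 and 2 (adjusted p of up to 0.0606).

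The remaining metabolic lists had 0 calls or calls already named, beside 6.5% of all genes. Of 29 female-biased genes 24 were tested, 2 rose (Cux2 and Cyp2b13) and 1 fell (Cd36), and of 26 male-biased genes 23 were tested with 0 calls. The medians were 0.06 and 0.16, 0.11 for the growth hormone list and -0.01 for the NRF2 list, and all 4 changed sign under some alternatives. Amino acid and urea genes (26 of 28 tested) had a median of 0.61, bile acid and xenobiotic receptor genes (22 of 24) 0.39 and lipid droplet genes (16 of 17) 0.23, each with 0 calls and a positive sign under every alternative. Retinoid genes (18 of 22 tested) had 0.07, growth control and p53 targets (26 of 26) 0.02, lipogenesis genes (22 of 22) 0.12, glucose and insulin genes (21 of 24) 0.25 and incretin and glucagon genes (8 of 11) -0.02, with 0 calls and signs that changed under some alternatives. With dim genes at their bound the medians of the lipogenesis, male-biased, study and T and NK cell lists were 0.18, 0.15, 0.13 and -0.60.

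The groups C+Fc-GLP-1 and C after PH, on chow diet, were compared gene by gene, since the labels give the same dose. The source labels of C+Fc-GLP-1 after PH name a dual agonist for the weeks after PH. Those of M+Fc-GLP-1 give the same treatment as before PH, so whether both groups had the same agent is not settled. C+Fc-GLP-1 differed from C in 434 genes (2.06%), 239 higher and 195 lower, but 74 and 119 in the authors' values and 236 and 116 with median centring. The count was 182 without C replicate 2, 225 without C replicate 3, 237 without C+Fc-GLP-1 replicate 1 and 206 without C+Fc-GLP-1 replicate 3. The 179 genes past the threshold on both diets were 13.1% of the MCD list and 41.2% of the chow list, and 178 of them went the same way. Chow arrays are other samples, but their treated arrays shared the slide and scanner of M+Fc-GLP-1. The untreated chow arrays shared the scanner of MCD, on another slide, so the same scanner difference lies in both comparisons. All 12 rises ranked above had a positive change on chow, 5 of them past the threshold. N6amt1 rose by 2.60 on chow (adjusted p = 1.26e-06) and Mrgprg by 2.90 (adjusted p = 0.00505). Of the 12 falls 11 had a negative change on chow, and Amer3 (adjusted p = 0.000157), well above background on 4 C and 0 C+Fc-GLP-1 arrays, was the 1 past the threshold there. S100a8 had -0.33 on chow (adjusted p = 0.884) and Saa1 -0.34 (adjusted p = 0.873). The difference between the diets was tested as an interaction in limma, and 0 genes (0%) passed, with 1835 at an unadjusted p under 0.05. The count was 46 with array weights, 5 in the authors' values, 5 with normexp and quantile normalization and 1 in a fit of only the groups compared. It was 14 and 4 without C replicates 1 and 2, 3 without M+Fc-GLP-1 replicate 3 and 2 without MCD replicate 4.

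Before PH, M+Fc-GLP-1 and MCD each lay with the treated or untreated chow group on a slide of its own, on the same scanner. Slide and treatment therefore cannot be told apart before PH either. At that time M+Fc-GLP-1 differed from MCD in 1521 genes (7.22%). Of these 934 were higher and 587 lower, but 251 and 1286 with median centring. The count was 875 and 693 without M+Fc-GLP-1 before PH replicates 1 and 3, and 546, 957 and 898 without MCD before PH replicates 1, 2 and 3. The 250 genes past the threshold both before and after PH were 18.3% of the list after PH and 16.4% of the list before it, and 230 went the same way. Jchain had -5.29 (adjusted p = 2.37e-05) before PH, Igh-VJ558 -5.32 (adjusted p = 2.88e-06), S100a8 -3.01 (adjusted p = 0.0082) and Saa1 -2.15 (adjusted p = 0.0365). Of the 12 falls ranked above 5 passed in the same direction before PH, and of the 12 rises 1, Defb1, with 1.71 (adjusted p = 0.035), while N6amt1 had -0.25 (adjusted p = 0.595) and Nyap1 0.15 (adjusted p = 0.853). The effect differed between the times in 415 genes (1.97%), 128 more positive and 287 more negative after PH, but 139 and 75 with median centring, and 68 and 143 with arrays before and after PH paired by number. This count was 154 without M+Fc-GLP-1 after PH replicate 4, 236, 256 and 275 without MCD after PH replicates 1, 2 and 3, 170 and 198 without M+Fc-GLP-1 before PH replicates 1 and 3, and 189, 224 and 269 without MCD before PH replicates 1, 2 and 4. N6amt1 differed by 3.29 (adjusted p = 1.4e-05), Hamp2 by 2.50 (adjusted p = 0.0419), Tmc5 by -4.80 (adjusted p = 0.016) and Jun by -2.68 (adjusted p = 0.0286). Cyp3a44, a female-biased cytochrome, had -5.50 before PH and -0.35 after it, a difference of 5.15 (adjusted p = 0.00174). Vmn2r5, a pheromone receptor gene, also passed (adjusted p = 0.00777), but it was well above background on 0 treated arrays before PH, so that its difference has no measured size. S100a8 (adjusted p = 0.81) and Saa1 (adjusted p = 0.679) did not pass this test.

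**Figure D5:**
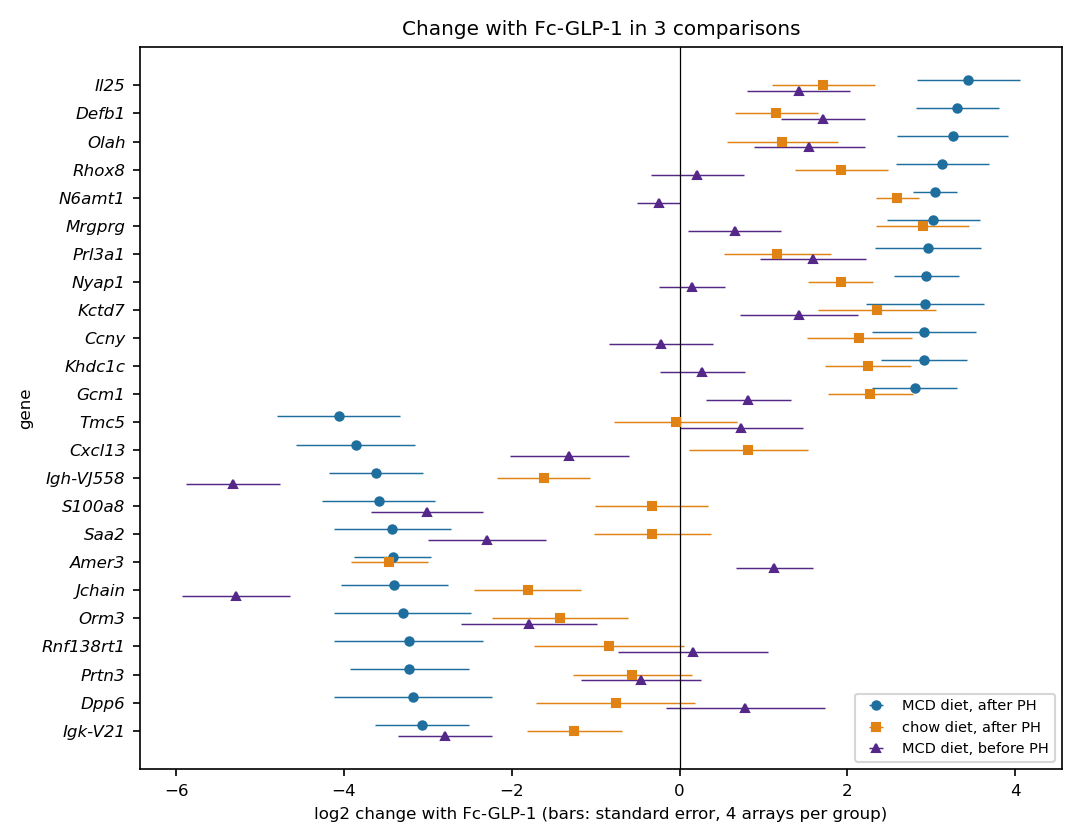
Log2 change with Fc-GLP-1 (points, bars standard error, n = 4 per group) of the 12 largest falls and rises on MCD after PH (genes with a name, past the threshold, without overlap between the groups), beside chow diet after PH and MCD before PH. On chow 5 of the 12 rises and 1 of the 12 falls passed in the same direction, and before PH 1 and 5. Changes of genes that were not well above background in a group are not measured sizes.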

How the data were processed

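RNA of 32 mouse liver samples was measured on 1-colour Agilent arrays, 4 per group. For the treated groups the study describes the samples before PH as coming from the same group of mice. Which arrays share a mouse is not given in the labels. Per the file headers, the deposited scanner files hold intensity values detrended within each array by the scanner software and not scaled between arrays. The authors also deposited a table of normalized log2 values made with limma, with settings not stated, whose column medians were near 6.482 before PH and 6.797 after it. Here log2 of the processed intensity minus the 75th percentile of the array's 59305 non-control spots was used. Spots with an outlier flag were left out, which dropped 426 probes. A probe was kept where some group had it well above background on each of its 4 arrays, and the brightest kept probe stood for its gene, giving 21073 genes. By RefSeq accession 27656 probes matched a gene and 1711 were renamed. The 8 groups were fitted together in limma 3.58.1 (R 4.3.3; tables and figures with python 3.11.15, pandas 2.3.3 and matplotlib 3.10.9), with Benjamini-Hochberg adjustment over all genes and a threshold of 0.05, after the fit was tested on simulated data. A gene not well above background on any array of a group has only a bound there. Its "at least" fold sets the brighter group's mean against the mean, per array, of the higher of the lowest signal well above background and the gene's own. The number of arrays limits precision.

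The 120 named genes are the 12 largest rises and 12 largest falls among genes with a name, past the threshold and without overlap between the arrays of the groups, genes named in the study, leading members of 46 lists (15 cell type, 30 pathway and the study's own) and genes whose effect differed most between times. Members and lists were chosen with earlier results of these data known, so the counts of calls in lists are a description and no independent evidence. Alternatives were array weights, the authors' values, median centring, normexp and quantile normalization, no filter and a stricter filter, averaging the probes of a gene, fitting the compared groups alone, a trend and robust fit, the replicate block and leaving out each array. Centring on probes above background on all arrays, and pairing arrays before and after PH by number, were chosen after seeing the data. Promoters came from RefSeq, where 91 of the 120 named genes had an entry. Some results are not reported here.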

Additional observations from a re-analysis of the deposited data

Results flagged for a closer look

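In 19 of 244 groups of 4 arrays tested, 1 array lay far from the other 3 by Dixon's ratio, where chance gives about 1 in 20. Values are log2 signals.

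Bhmt lay at 9.43 on M+Fc-GLP-1 after PH replicate 2, against 8.99 to 9.01 on the others. Camp read 2.06 on M+Fc-GLP-1 after PH replicate 3, against -2.29 to -1.70 on the others. Cd22 stood at -2.59 on M+Fc-GLP-1 after PH replicate 4, against -2.30 to -2.27 on the others. Cd4 measured 3.88 on M+Fc-GLP-1 after PH replicate 4, against 4.99 to 5.11 on the others. Dpp6 lay at 6.26 on MCD after PH replicate 2, against -1.57 to -0.87 on the others. Fap read -5.56 on MCD after PH replicate 1, against -3.45 to -3.15 on the others. Fgb stood at 9.66 on MCD after PH replicate 3, against 9.31 to 9.37 on the others. Gnmt measured 7.17 on MCD after PH replicate 1, against 7.50 to 7.56 on the others. Gzmb lay at -3.0 on M+Fc-GLP-1 after PH replicate 2, against -4.16 to -4.01 on the others. Id1 read 3.86 on M+Fc-GLP-1 after PH replicate 1, against 2.60 to 2.66 on the others. Igk-V21 stood at -2.80 on MCD after PH replicate 3, against -3.32 to -3.26 on the others. Marco measured 6.44 on MCD after PH replicate 4, against 7.29 to 7.44 on the others. Nyap1 lay at -2.80 on M+Fc-GLP-1 after PH replicate 3, against -2.49 to -2.44 on the others. Ppbp read -0.58 on MCD after PH replicate 3, against -0.97 to -0.94 on the others. Rhox8 stood at 5.57 on MCD after PH replicate 3, against 3.38 to 3.76 on the others. Rnf138rt1 measured -2.12 on M+Fc-GLP-1 after PH replicate 3, against -3.51 to -3.38 on the others. Rspo3 lay at 1.79 on MCD after PH replicate 4, against 1.24 to 1.32 on the others. S100a8 read 2.70 on M+Fc-GLP-1 after PH replicate 3, against -0.46 to -0.06 on the others. Wnt2 stood at -4.87 on MCD after PH replicate 2, against -3.62 to -3.42 on the others.

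Of the named genes, 15 passed limma's interaction test between after and before PH for the effect of Fc-GLP-1 on MCD diet, as did 1.97% of all genes. The 5 largest differences in each direction were named for passing it, so the 15 are a description and no measure of how common it is. Treatment cannot be told apart from slide before PH, nor from slide and scanner after it. A4gnt, Amer3, Htr1d, Vmn2r5 and Xcl1 were not well above background on any array of 1 or 2 of the 4 groups, so that the values given for them are not measured sizes. The probe named for Rhox8 is mostly a repeat of 3 bases. After PH alone, A4gnt was at least 1.36-fold higher and Amer3 at least 3.18-fold lower, and the bound for Htr1d, which did not pass there (adjusted p = 0.181), was 1.45-fold lower. A4gnt had a difference of 3.47 (adjusted p = 0.0269), from -1.26 before PH to 2.21 after it. Amer3 differed by -4.55 (adjusted p = 0.000541), from 1.13 before PH to -3.42 after it. Cyp3a44 had a difference of 5.15 (adjusted p = 0.00174), from -5.50 before PH to -0.35 after it. Hamp2 differed by 2.50 (adjusted p = 0.0419), from 0.18 before PH to 2.68 after it. Htr1d had a difference of -3.63 (adjusted p = 0.0497), from 2.07 before PH to -1.56 after it. Jun differed by -2.68 (adjusted p = 0.0286), from 0.70 before PH to -1.98 after it. Lipf had a difference of -3.03 (adjusted p = 0.00973), from 1.79 before PH to -1.25 after it. N6amt1 differed by 3.29 (adjusted p = 1.4e-05), from -0.25 before PH to 3.04 after it. Nyap1 had a difference of 2.79 (adjusted p = 0.00912), from 0.15 before PH to 2.94 after it. Olfr612 differed by -2.92 (adjusted p = 0.0368), from 1.38 before PH to -1.54 after it. Rhox8 had a difference of 2.92 (adjusted p = 0.0491), from 0.21 before PH to 3.13 after it. Tinag differed by 3.95 (adjusted p = 0.0374), from -1.85 before PH to 2.10 after it. Tmc5 had a difference of -4.80 (adjusted p = 0.016), from 0.73 before PH to -4.07 after it. Vmn2r5 differed by 4.14 (adjusted p = 0.00777), from -4.13 before PH to 0.01 after it. Xcl1 had a difference of 3.38 (adjusted p = 0.0496), from -2.07 before PH to 1.31 after it.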

How the results depend on the processing

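Of 71 named genes past the threshold 29 passed under all alternatives that tested them, which were 19 or, for genes dropped by the stricter filter, 18, with 8 of these leaving out an array, and 6 of 49 others passed under some alternative. For M+Fc-GLP-1 against MCD after PH the count was 769 with no filter on dim probes, 830 in a fit of only the groups compared, 883 with a stricter filter, and from 691 to 1322 with 1 array left out. The diet difference gave 46 genes with array weights, 5 in the authors' values, 5 with normexp and quantile normalization, 1 in a fit of only the groups compared, and 0 to 14 with 1 array left out. The time difference gave 753 with array weights, 214 with median centring, 2003 with no filter, 211 with arrays before and after PH paired by number, and 154 to 577 with 1 array left out. The chow comparison gave 1108 with array weights, 193 in the authors' values, 211 with no filter, 132 with normexp and quantile normalization, 88 in a fit of only the groups compared, and 182 to 370 with 1 array left out. The comparison before PH gave 2316 with array weights, 6761 with no filter, 2624 with normexp and quantile normalization, and 546 to 1722 with 1 array left out. The difference in detection ranged from 0.385 to 4.61 percentage points with 1 array left out.

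Signs turned as follows, as log2 changes. Median centring gave -0.0149 for Afp, -0.10 for Glp1r and -0.12 for Vmn2r5. Normexp and quantile normalization gave -0.0012 for Apoa2, -0.17 for Fgb, -0.20 for Glp1r and -0.10 for Vmn2r5. The authors' values gave -0.18 for Fgb, -0.22 for Glp1r, -0.0872 for Sdc1 and -0.12 for Vmn2r5. Array weights gave -0.0528 for Glp1r, 0.0322 for Hba-a1 and 0.0411 for Ifng. The mean over probes gave 0.33 for Cd4, and the centring chosen after seeing the data gave -0.0120 for Vmn2r5. With 1 array left out Afp ranged from -0.11 to 0.29, Cd4 from -0.28 to 0.15, Cyp3a44 from -0.75 to 0.42, Glp1r from -0.65 to 0.47, Hba-a1 from -0.23 to 0.11, Ifng from -0.55 to 0.16, Mmp2 from -0.13 to 0.63, Tagln from -0.21 to 0.11, Tnf from -0.66 to 0.14 and Vmn2r5 from -0.68 to 0.38. The cause was not tested. In the authors' values sizes came down to -3.21 for Ltf, -1.08 for Mmp8, -1.06 for Mthfd2, -1.05 for Mzb1, -1.48 for Ppbp, -2.05 for Rnf138rt1, 1.57 for Epcam, 0.76 for Wnt2, 1.05 for Acot5, 0.62 for Hlf and 0.42 for A4gnt. With normexp and quantile normalization they did so to -2.80 for Mpo, -1.12 for Timd4 and 0.99 for Bmp6, and with probes averaged to 1.14 for Rhox8. Medians that kept their sign came closest to 0 under some alternative at -1.51 for neutrophils, -0.58 for recruited macrophages, -0.20 for B and plasma cells, -0.34 for T and NK cells, -0.25 for platelets, -0.18 for erythroid cells, 0.44 for adipocytes and 0.0678 for gallbladder and gut epithelium. Among pathways they did so at -0.27 for acute phase, -0.39 for chemokines, -0.11 for DNA replication, -0.15 for cholesterol, -0.0853 for endoplasmic reticulum stress, 0.12 for iron, 0.0977 for methionine, 0.25 for amino acids, 0.10 for bile acids, 0.28 for cytochrome P450, 0.0707 for lipid droplets and 0.0234 for clock genes.

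After group means were taken out, same-numbered arrays of MCD and M+Fc-GLP-1 after PH had correlations from -0.10 to 0.04. Of these arrays 0 correlated best with their own number. With the replicate block 1364 genes passed. Same-numbered arrays before and after PH had correlations from -0.0470 to 0.0876, and 3 of 16 were best with their own number. Such values cannot show whether arrays share a mouse, since the liver regrew between the samples and the slides differ. The study speaks of the same group of mice at both times for the treated groups, without saying which arrays share a mouse. Array signal over background limits what can be said of dim genes. For 101 of the higher and 38 of the lower genes, the probe used was well above background on 0 arrays of the lower group.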
